A study of Mus musculus with 8 samples.

Results

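The genes described here are 44 mouse cell cycle genes, found on the array by the gene name of their probes: 21 that act in mitosis, 15 that act in DNA replication or the entry into S phase, 3 D-type cyclins and 5 cyclin-dependent kinase inhibitors. They carried 64 probes, and their levels were followed in 3 sorted populations of lung fibroblasts and in the lung cell mixture. Of the 23607 named genes on the array 17251 were tested, and 39 of the 44 were among them. Aurkb, Cenpf, Tpx2, Ccne2 and Cdkn2a were not well above background on both arrays of any group and were left out of the tests.

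The 8 one-colour Agilent arrays held lung fibroblasts of type A, of type B and of type C, and a suspension called pulmonary single cells, with 2 independently prepared samples in each group. All cells came freshly from the lungs of adult female C57BL/6 mice of 12 to 16 weeks, with no treatment, and every sample consisted of 50000 cells, from which 10 ng of RNA was amplified. The sort used antibodies against the lineage antigens TER119, Lyve-1, CD45, E-cadherin, CD146 and CD31, together with antibodies against Thy-1, Pdgfra and Sca-1. The combination that defines each fibroblast type and the number of mice in a sample are not given in the sources used here. The pulmonary single cells are a mixture of lung cell types, so each fibroblast comparison sets a sorted population against a mixture. Arrays are called by group letter and replicate number, from A1 to C2, and the pair from pulmonary single cells as Pu1 and Pu2.

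Cells that divide pass through S phase, in which the genome is copied, and then through mitosis, in which the copies are parted. D-type cyclins and their kinases inactivate the retinoblastoma pocket proteins, which frees E2F factors to switch on replication genes, and the genes of mitosis follow later through the MuvB complex with B-Myb and FoxM1. In a resting cell the DREAM complex, which holds MuvB with pocket protein and E2F, keeps both sets of genes low, and the inhibitors of the Cip/Kip and INK4 families hold the kinases in check.

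Levels are given as scaled log2 signals: the log2 of a probe's processed signal minus that of the array's 75th percentile, so that 0 is the level of that percentile on each array. A level belongs to 1 probe and is not set against that of another probe. Unless another probe is named, the level, detection and difference of a gene are those of its brightest kept probe, or of its brightest probe where none was kept. A difference is a difference of group means on this log2 scale with its standard error (SE) from limma, and a gene was called at an adjusted p under 0.05, where adjustment (Benjamini-Hochberg) ran over all 17251 genes of a comparison. If both arrays of a group failed to read a probe well above background, the true level may be lower still, and the fold is given as a lower bound ("at least"). For the bound, the group's array values were raised to the lowest signal among probes well above background on that array.

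The arrays' 75th percentile ran from 113.5 to 259.8 signal units and 54.6% to 68.7% of spots were well above background, with the lowest of both on C2. Correlation between the 2 arrays of a group across genes was 0.985 for A-type, 0.985 for B-type, 0.947 for C-type and 0.915 for pulmonary single cells, and 31.4% of genes lay at least 2-fold apart between Pu1 and Pu2. The pulmonary arrays lay on a slide of their own, so that slide and the difference between fibroblasts and pulmonary single cells cannot be told apart. The C-type arrays shared the second slide with the A-type and B-type arrays but differed in the number after the slide code in the array barcode. The barcode does not say what that number stands for, and among the fibroblasts it cannot be told apart from C-type. The pulmonary arrays carried the same number as the C-type arrays. A-type and B-type arrays thus differed from the pulmonary arrays in slide and in this number, and C-type arrays in slide alone. All 7 fibroblast markers (Col1a1, Col1a2, Col3a1, Dcn, Lum, Pdgfra and Pdgfrb) were called higher in the fibroblasts. The 4 leukocyte markers (Ptprc, Coro1a, Laptm5 and Tyrobp) were all called lower, with a summed level of 0.496 to 0.845 on the fibroblast arrays, against 124 to 172 on the pulmonary arrays, in multiples of the 75th percentile. Laptm5 was not well above background on any fibroblast array. Blood endothelial markers summed to 4.64 to 7.66 on fibroblast arrays, against 76.7 to 87.3 on pulmonary arrays, and erythroid markers to 0.331 to 1.96 on fibroblast arrays, against 78.1 to 113 on pulmonary arrays. The part of those cells in each cell cycle difference from the pulmonary single cells was not tested. In such bulk samples, fewer cycling cells and less RNA per cell cannot be told apart.

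The promoters of some of the genes on which the results turn are shown first, because mitotic and replication genes are known to differ in the short sequences there. Each run below is a RefSeq window on GRCm38.p6 from 250 bases before to 50 bases after the transcription start, read 5′ to 3′ on the gene's strand. Capitals mark 3 kinds of letters searched on both strands: the cell cycle homology region TTTGAA, which MuvB complexes bind in mitotic genes; the CCAAT box, bound by NF-Y; and an E2F core, taken as TTNNCGC with C or G at each N. Mki67, Ccnb2 and Kif11 stand for the mitotic genes, E2f2 and Rrm2 for the S-phase genes, and Cdkn2b and Cdkn2c for the inhibitors.
Mki67 (chr7:135716330-135716629, minus strand): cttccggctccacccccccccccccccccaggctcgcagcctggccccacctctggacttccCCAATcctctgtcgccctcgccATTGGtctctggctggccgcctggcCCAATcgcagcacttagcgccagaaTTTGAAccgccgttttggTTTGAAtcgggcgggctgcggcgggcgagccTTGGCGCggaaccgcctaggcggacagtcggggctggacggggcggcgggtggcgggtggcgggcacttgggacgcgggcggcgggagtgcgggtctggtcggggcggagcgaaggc
Ccnb2 (chr9:70421505-70421804, minus strand): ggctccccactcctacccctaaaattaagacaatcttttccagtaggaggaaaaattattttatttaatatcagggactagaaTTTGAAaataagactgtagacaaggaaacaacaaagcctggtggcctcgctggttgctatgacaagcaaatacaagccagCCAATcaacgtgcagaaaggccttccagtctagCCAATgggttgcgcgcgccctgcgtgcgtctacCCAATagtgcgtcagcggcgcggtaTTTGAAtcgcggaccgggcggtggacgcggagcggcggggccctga
Kif11 (chr19:37376132-37376431, plus strand): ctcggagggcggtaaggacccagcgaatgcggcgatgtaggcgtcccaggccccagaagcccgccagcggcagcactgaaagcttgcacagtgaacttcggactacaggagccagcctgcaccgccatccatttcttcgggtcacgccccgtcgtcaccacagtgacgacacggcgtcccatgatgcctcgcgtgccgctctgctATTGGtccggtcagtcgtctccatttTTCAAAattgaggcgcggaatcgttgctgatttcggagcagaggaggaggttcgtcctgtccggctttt
E2f2 (chr4:136172024-136172323, plus strand): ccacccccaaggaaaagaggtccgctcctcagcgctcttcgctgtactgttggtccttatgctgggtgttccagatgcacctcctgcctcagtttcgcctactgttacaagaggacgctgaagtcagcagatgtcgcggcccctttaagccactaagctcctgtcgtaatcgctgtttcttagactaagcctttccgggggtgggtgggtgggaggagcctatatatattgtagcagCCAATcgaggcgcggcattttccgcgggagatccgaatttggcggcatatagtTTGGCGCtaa
Rrm2 (chr12:24708004-24708303, plus strand): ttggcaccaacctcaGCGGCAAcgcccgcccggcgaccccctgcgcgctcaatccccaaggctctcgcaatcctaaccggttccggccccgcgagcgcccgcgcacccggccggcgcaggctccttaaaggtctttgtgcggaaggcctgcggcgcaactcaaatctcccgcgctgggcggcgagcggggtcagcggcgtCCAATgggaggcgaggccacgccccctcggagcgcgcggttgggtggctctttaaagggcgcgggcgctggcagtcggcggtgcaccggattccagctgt
Cdkn2b (chr4:89310983-89311282, minus strand): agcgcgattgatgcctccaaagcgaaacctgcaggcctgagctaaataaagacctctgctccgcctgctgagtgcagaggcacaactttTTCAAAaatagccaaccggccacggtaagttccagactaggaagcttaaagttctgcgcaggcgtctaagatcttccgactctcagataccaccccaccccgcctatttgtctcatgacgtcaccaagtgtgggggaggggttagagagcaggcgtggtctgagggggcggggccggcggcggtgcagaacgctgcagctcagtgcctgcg
Cdkn2c (chr4:109666707-109667006, minus strand): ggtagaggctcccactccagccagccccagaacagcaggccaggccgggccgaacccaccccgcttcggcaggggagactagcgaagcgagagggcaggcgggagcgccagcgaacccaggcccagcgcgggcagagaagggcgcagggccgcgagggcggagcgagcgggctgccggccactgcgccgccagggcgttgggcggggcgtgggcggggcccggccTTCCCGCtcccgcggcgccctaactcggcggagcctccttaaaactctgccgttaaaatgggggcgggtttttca

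In the Mki67 window 3 CCAAT boxes lie 188, 166 and 141 bases before the start, followed by homology regions at 116 and 98 bases and an E2F core at 67 bases before it. Ccnb2 has 3 CCAAT boxes, spaced evenly at 87, 54 and 21 bases before the start, and a homology region 4 bases after it, with another at 167 bases before it. In Kif11 both motifs lie on the other strand, the CCAAT box 45 and the homology region 19 bases before the start. E2f2 holds a CCAAT box 13 bases before and an E2F core 40 bases after the start, and a second E2f2 start in the RefSeq table, not shown, has homology region letters. Rrm2 holds a CCAAT box 50 bases before the start and an E2F core further upstream. Cdkn2c holds an E2F core 25 bases before its start. Cdkn2b holds homology region letters 161 bases before its start and none of the other letters.

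Over all members, the table held windows for 17 of the 21 mitotic genes, 13 of the 15 S-phase genes (15 windows) and all 5 inhibitors (8 windows). Homology region letters stood in 70.6% of the mitotic windows, in 13.3% of the S-phase windows and in 12.5% of the inhibitor windows, beside 17.9% of all 32851 windows of the table. The E2F core stood in 17.6% of the mitotic, 53.3% of the S-phase and 25.0% of the inhibitor windows, beside 9.57% of all windows. CCAAT boxes were found in 88.2% of the mitotic, 73.3% of the S-phase and 37.5% of the inhibitor windows, beside 37.4% of all. Among the mitotic windows without homology region letters were those of Bub1 and Nusap1, which were both called lower in the fibroblasts. Letters of different motifs shared bases in the Ccnb1, Cdca8 and Mcm7 windows. A match describes the letters and not a bound site.

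**Figure D1:**
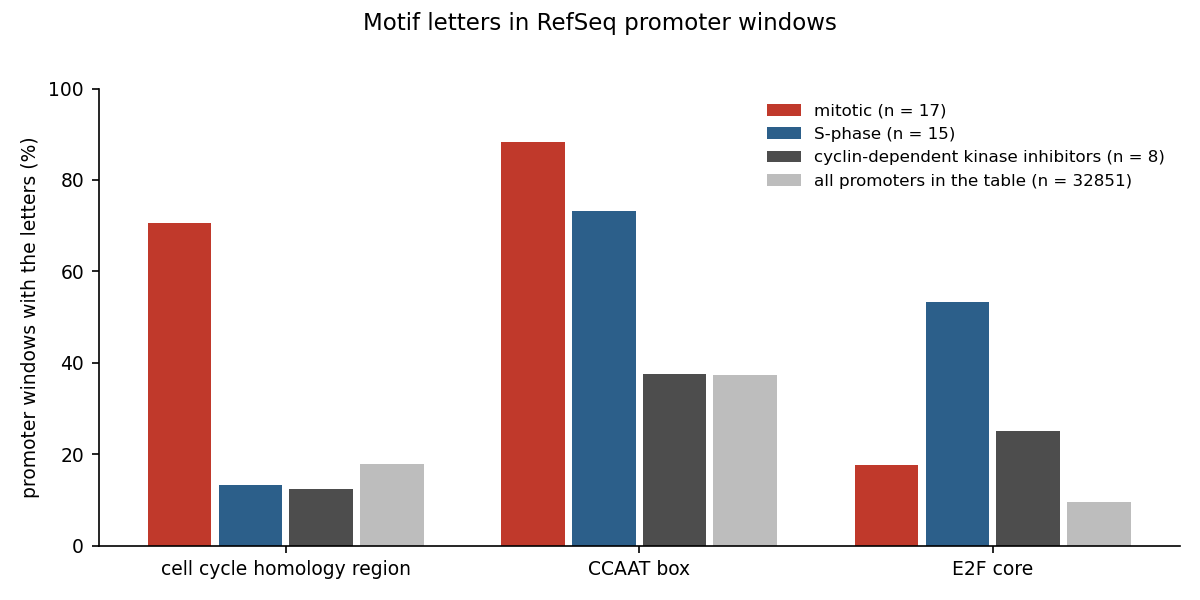
Share of RefSeq promoter windows (y axis, percent) that hold the letters of the cell cycle homology region, the CCAAT box or the E2F core on either strand, for windows of mitotic genes, S-phase genes, inhibitors and the whole table. The homology region is found in 70.6% of mitotic windows and 13.3% of S-phase windows, and the E2F core in 17.6% of mitotic and 53.3% of S-phase windows.

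Many mitotic genes were low in the fibroblasts. Of the 18 tested, 10 were called lower than in the pulmonary single cells and 0 higher (13 differed at an unadjusted p under 0.05), while 16.3% of all genes tested were called lower and 20.8% higher. The median log2 difference of the 18 was -1.61, against 0.099 over all genes tested. In 13 of the 18 all 6 fibroblast arrays lay below both pulmonary arrays, as they did for 19.9% of all genes. The filter on dim probes bears on these counts: Bub1, Bub1b, Ccna2, Ccnb1, Cenpe, Kif11 and Top2a passed it through the pulmonary arrays only, which a gene low in those arrays could not have done. Of the 11 mitotic genes that were measured on both arrays of at least 1 fibroblast type, 6 were called lower, against 11.1% of the 15802 such genes on the array.

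Mki67, whose protein Ki-67 coats mitotic chromosomes and marks cells outside the resting state, had levels of -2.22 and -2.24 in A-type, -1.13 and -2.35 in B-type and -1.65 and -1.39 in C-type fibroblasts, against 2.33 and 2.18 in pulmonary single cells. Its probe lies at chr7:142881591-142881650 (mm9, minus strand) and was well above background on all 8 arrays. All fibroblast arrays were far below both pulmonary arrays, and the B-type arrays spanned those of the other types. The difference was -4.09 (SE 0.34, adjusted p = 0.000169), which is 17.0-fold lower in the fibroblasts. A second Mki67 probe gave -5.09 when every probe was fitted on its own. Against the same pair of pulmonary arrays, the differences of the single types were -4.49 for A-type, -4.00 for B-type and -3.77 for C-type.

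Ccna2, cyclin A2, which serves both S phase and entry into mitosis, had levels of -3.80 and -3.90 in A-type, -4.05 and -4.84 in B-type and -5.33 and -4.55 in C-type fibroblasts, against -1.00 and -0.47 in pulmonary single cells. Only A1 of the fibroblast arrays was well above background. The difference was -3.68 (SE 0.34, adjusted p = 0.000256), at least 8.24-fold lower in the fibroblasts. Bub1, a kinase of the spindle checkpoint, was not well above background on any fibroblast array, where it read -5.41 and -5.84 in A-type, -5.53 and -5.83 in B-type and -5.88 and -5.34 in C-type. It read -3.05 and -2.51 in pulmonary single cells, and the difference of -2.86 (SE 0.29, adjusted p = 0.000396) amounts to at least 2.09-fold.

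Kif11, the Eg5 motor that pushes the spindle poles apart, had levels of -4.15 and -3.84 in A-type, -4.24 and -4.38 in B-type and -6.01 and -4.67 in C-type fibroblasts, against -1.96 and -1.57 in pulmonary single cells. No fibroblast array was well above background for it. The difference was -2.78 (SE 0.37, adjusted p = 0.0014), at least 4.19-fold. Nusap1, which bundles spindle microtubules, split the fibroblast types by detection. It read -3.73 and -2.67 in A-type and -3.24 and -2.58 in B-type, well above background, and -6.00 and -4.79 in C-type, where it was not, against -1.70 and -1.31 in pulmonary single cells. The difference of all fibroblasts from pulmonary single cells was -2.33 (SE 0.44, adjusted p = 0.00614), at least 3.33-fold.

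The other 5 mitotic genes called lower were Cdca8 (borealin, of the chromosomal passenger complex), Bub1b (the checkpoint protein BubR1), Plk1 (polo-like kinase), Ccnb2 (cyclin B2) and Ube2c (a ubiquitin carrier for the anaphase-promoting complex). Their differences were -1.96, -1.94, -1.23, -1.21 and -1.13 in that order. Plk1 and Ube2c were well above background on all 8 arrays. Plk1 spanned -1.87 to -1.08 on the fibroblast arrays, against -0.60 and 0.09 on the pulmonary arrays. Ube2c spanned -2.29 to -1.55 on the fibroblast arrays, against -0.52 and -0.88 on the pulmonary arrays. Cdca8 overlapped between the groups, with -5.24 to -1.75 on fibroblast arrays, against -2.06 and 0.08 on pulmonary arrays, and its call was lost under 13 of 18 other settings. The call of Bub1b was lost under 11 of 18 and that of Ccnb2 under 8 of 18, and leaving out Pu2 was among those settings for each of the 3 genes.

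**Figure D2:**
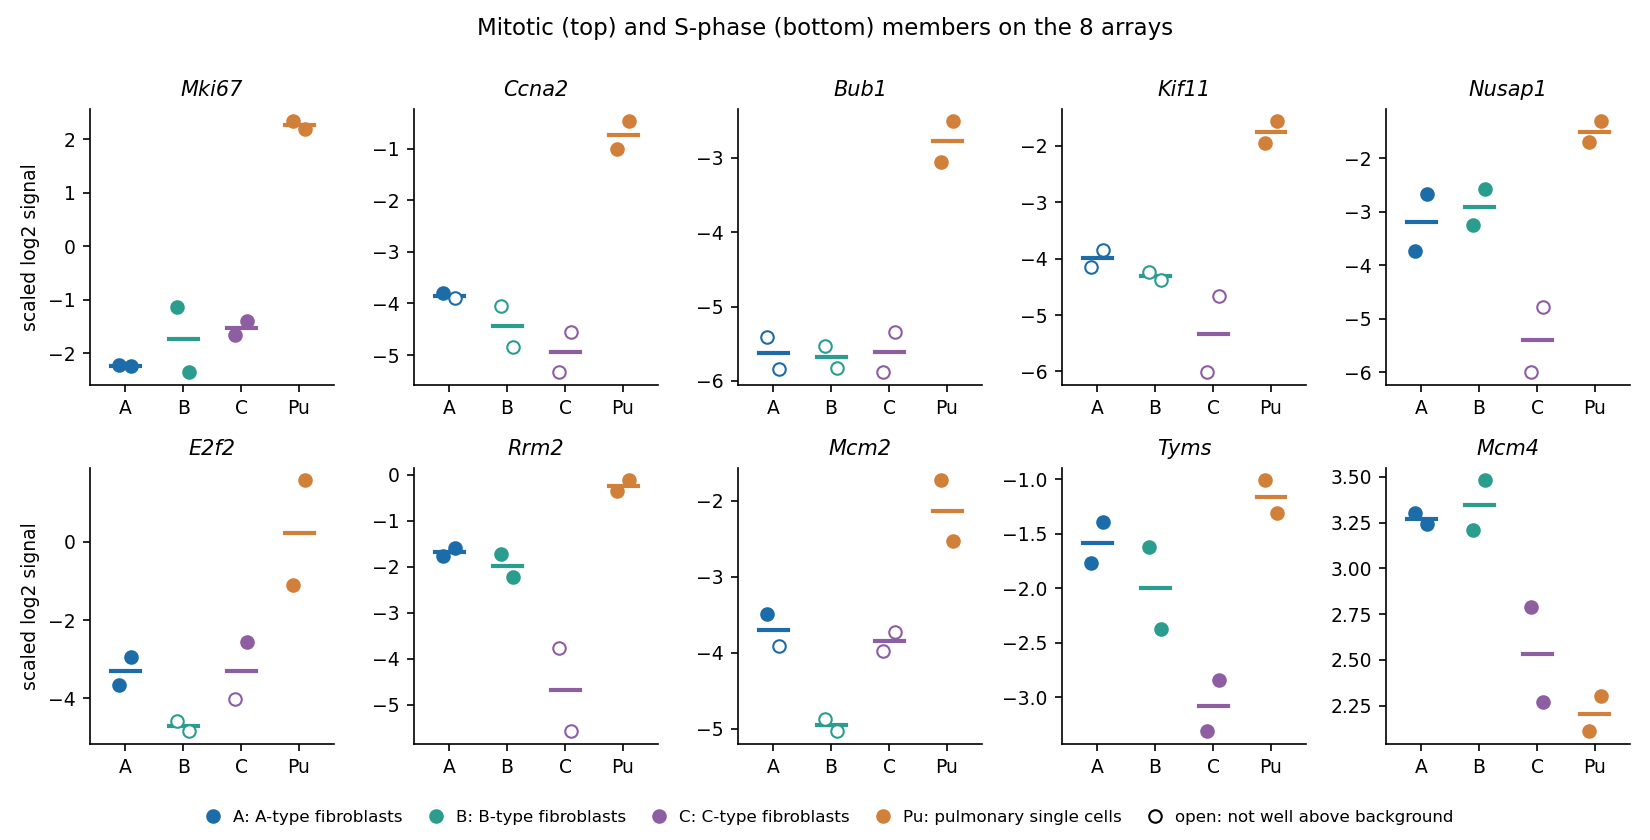
Scaled log2 signal (y axis, log2 relative to the array's 75th percentile) of 5 mitotic genes in the upper row and 5 S-phase genes in the lower row on each array, with the 3 fibroblast types A, B and C left of the pulmonary single cells (Pu). Points are arrays, bars are the means of 2 arrays, and open points were not well above background; Mki67 lies between -2.35 and -1.13 on all 6 fibroblast arrays, against 2.33 and 2.18 on the pulmonary arrays.

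A further 8 mitotic genes were tested and not called. Top2a, the topoisomerase that untangles chromosomes, gave -1.81 (SE 0.70, adjusted p = 0.084), with all fibroblast arrays below -2.62 and only C2 well above background. Ccnb1, cyclin B1, gave -1.42 (adjusted p = 0.0646) and was not well above background on any fibroblast array. Birc5 (survivin) gave -1.79 (SE 0.65, adjusted p = 0.0679), and here Pu1 at -0.13 lay close to the fibroblast arrays, of which the highest was -0.28, while Pu2 read 2.35. Cdc20 gave -0.97, Cenpe -0.60, Aurka -0.39, Kif20a -0.11 and Cdk1 0.07. Of the mitotic genes not tested, Aurkb and Cenpf stayed at background on all 8 arrays, and the brighter of 2 Tpx2 probes was above it only on the second array of each group, at -3.12 in A-type, -3.54 in B-type and -1.23 in C-type, against -1.52 in pulmonary single cells. The other Tpx2 probe was above background on Pu1 alone, at -3.17.

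Probes of a gene did not always move together. For Birc5, the 2 other probes gave -3.19 and -3.52 (adjusted p = 0.00475 and 0.000792 over all probes kept), and 1 of them was not well above background on any fibroblast array. For Ccnb1, another probe gave -2.81 (adjusted p = 0.0125). For Cdk1, the kinase that drives mitosis, the probe that stood for the gene was near level, at -2.55 and -2.29 in A-type, -2.24 and -2.15 in B-type and -1.75 and -1.11 in C-type fibroblasts, against -1.87 and -2.29 in pulmonary single cells. The 2 other Cdk1 probes did not pass the filter: 1 was above background on Pu1 alone and the other on A1 alone. The value for Cdk1 therefore rests on 1 probe, and whether that probe also binds other transcripts was not tested. These probes were singled out after their values were seen.

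S-phase genes were split. Of the 14 tested, 4 were called lower in the fibroblasts and 1 higher, beside 16.3% and 20.8% of all genes. Their median log2 difference was -0.77. In 6 of the 14 all fibroblast arrays lay below both pulmonary arrays, as they did for 19.9% of all genes. Mcm2 alone among the 14 passed the filter through the pulmonary arrays only. Among the 13 others 3 were called lower, which is 23.1%, beside 11.1% of all genes measured in a fibroblast type.

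E2f2, a transcription factor that activates replication genes, had levels of -3.67 and -2.94 in A-type, -4.59 and -4.84 in B-type and -4.03 and -2.56 in C-type fibroblasts, against -1.10 and 1.57 in pulmonary single cells. The pulmonary arrays lay above all fibroblast arrays and far apart from each other. The difference was -4.01 (SE 0.71, adjusted p = 0.00485), at least 12.9-fold lower in the fibroblasts, and it ran from -5.34 to -2.67 when single arrays were left out. Its family member E2f1, on a probe well above background on every array, gave 0.31 (adjusted p = 0.316). Erythroid markers, given above, moved in the same direction as E2f2, as did the leukocyte and blood endothelial markers. The part of any of these cells in the E2f2 difference was not tested.

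Rrm2, the regulatory subunit of ribonucleotide reductase, had levels of -1.77 and -1.58 in A-type and -1.71 and -2.23 in B-type fibroblasts. It read -3.77 and -5.57 in C-type fibroblasts, where it was not well above background, against -0.36 and -0.12 in pulmonary single cells. All fibroblast arrays were below the pulmonary ones, the C-type arrays furthest. The difference was -2.53 (SE 0.46, adjusted p = 0.00536), at least 4.50-fold. Rrm1, the large subunit of the same enzyme, gave 0.22 (SE 0.23, adjusted p = 0.487), with 0.80 to 1.35 on fibroblast arrays, against 1.03 and 0.71 on pulmonary arrays.

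Mcm2, a subunit of the MCM helicase that unwinds DNA at replication origins, had levels of -3.49 and -3.91 in A-type, -4.87 and -5.03 in B-type and -3.97 and -3.72 in C-type fibroblasts, against -1.73 and -2.53 in pulmonary single cells. Only A1 of the fibroblast arrays was well above background. The difference was -2.03 (SE 0.29, adjusted p = 0.00185), at least 3.03-fold. Mcm4, another subunit of the same ring, went the other way: 3.30 and 3.24 in A-type, 3.21 and 3.48 in B-type and 2.79 and 2.27 in C-type fibroblasts, against 2.11 and 2.30 in pulmonary single cells. Here C2 overlapped with the pulmonary arrays. The difference was 0.84 (SE 0.25, adjusted p = 0.0334), 1.80-fold higher in the fibroblasts, and the call was lost under 10 of 19 other settings. The 4 other subunits tested were not called, at -1.18 for Mcm5, -0.94 for Mcm3, -0.36 for Mcm6 and -0.30 for Mcm7.

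Tyms, thymidylate synthase, had levels of -1.77 and -1.39 in A-type, -1.62 and -2.37 in B-type and -3.31 and -2.84 in C-type fibroblasts, against -1.01 and -1.31 in pulmonary single cells. The A-type arrays lay just under the pulmonary ones and the C-type arrays lowest. The difference was -1.06 (SE 0.30, adjusted p = 0.0307), 2.08-fold lower in the fibroblasts, and the call was lost under 11 of 19 other settings. Tk1, thymidine kinase, was not called by its brightest probe, at -0.78 (adjusted p = 0.0578), which carries no RefSeq accession. The 2 other Tk1 probes gave -4.54 (adjusted p = 0.00115) and -1.47 (adjusted p = 0.00937) over all probes kept. Of these 2, the probe at -4.54 carries a RefSeq accession and the probe at -1.47 does not. Among the fibroblast arrays, only A1 and A2 were well above background for the probe at -1.47. The probe at -4.54 read -6.37 to -5.54 on the fibroblast arrays, with none well above background, against -2.31 and -0.37 on the pulmonary arrays. Pcna, the sliding clamp of the replication fork, gave 0.56 (adjusted p = 0.167) and Ccne1, cyclin E1, gave -0.76 (adjusted p = 0.14). A second Ccne1 probe, singled out after its values were seen, was well above background on the A-type arrays alone, at -2.87 and -3.08. It read -6.06 and -5.39 in B-type and -5.82 and -5.53 in C-type fibroblasts, against -4.03 and -4.56 in pulmonary single cells. Ccne2 stayed at background on all 8 arrays.

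**Figure D3:**
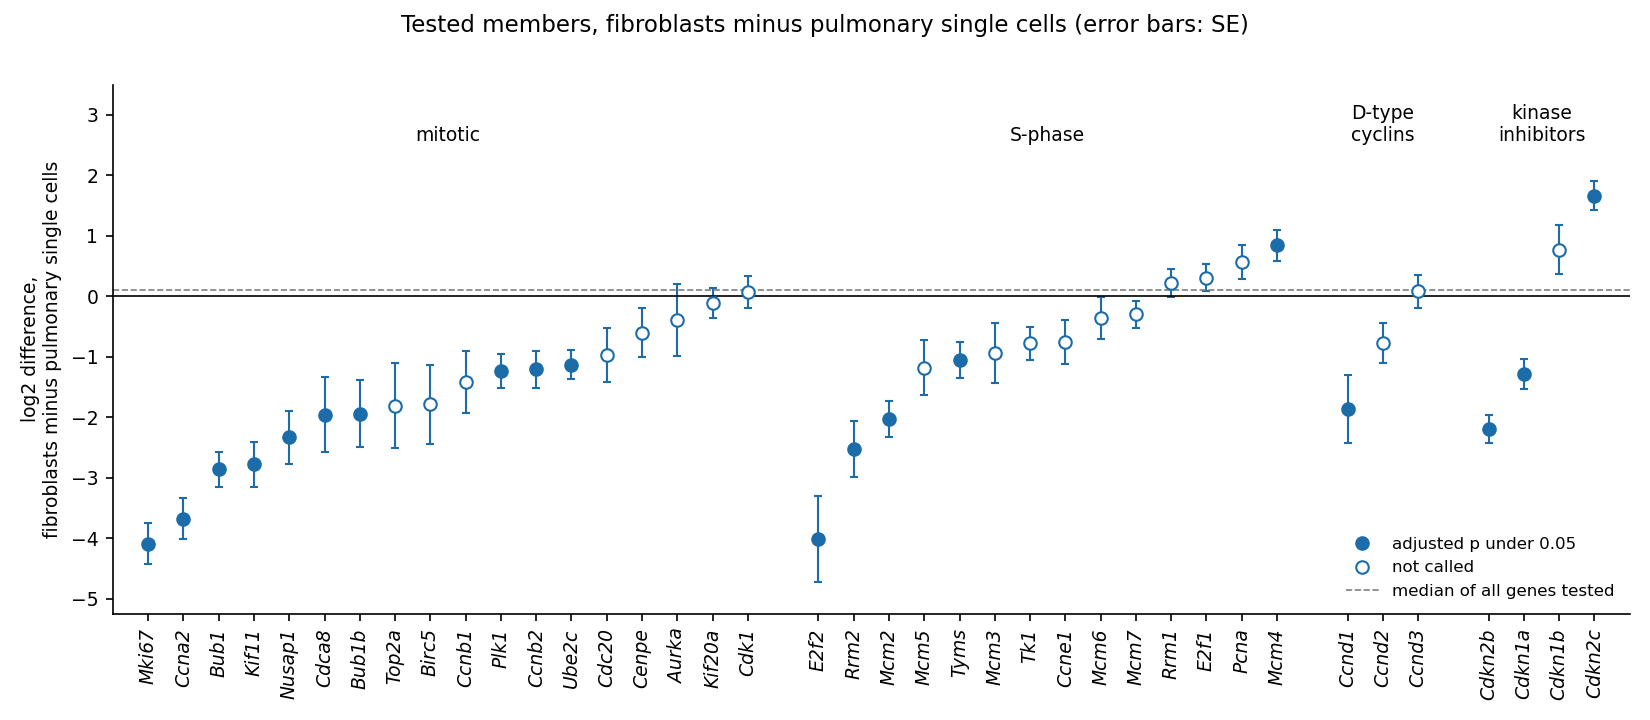
Log2 difference, fibroblasts minus pulmonary single cells (y axis), with its SE for the 39 tested genes, sorted within each class; filled points had an adjusted p under 0.05 and the dashed line is the median of all genes tested. Mitotic genes run from -4.09 for Mki67 to 0.07 for Cdk1, S-phase genes from -4.01 for E2f2 to 0.84 for Mcm4, and the inhibitors from -2.20 for Cdkn2b to 1.66 for Cdkn2c.

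The cyclin-dependent kinase inhibitors had no common direction. Of 4 tested, 1 was called higher in the fibroblasts (Cdkn2c), 2 lower (Cdkn1a and Cdkn2b) and 1 neither (Cdkn1b). Of all genes tested, 20.8% were called higher and 16.3% lower. The median log2 difference of the 4 inhibitors was -0.26. Cdkn2c (p18, an INK4 inhibitor of the kinases that pair with D-type cyclins) had levels of 1.89 and 2.05 in A-type, 2.02 and 1.63 in B-type and 2.06 and 2.04 in C-type fibroblasts, against 0.12 and 0.45 in pulmonary single cells. All fibroblast arrays were above both pulmonary arrays, as for 23.8% of all genes, and the 3 types overlapped. The difference was 1.66 (SE 0.24, adjusted p = 0.0018), 3.16-fold higher in the fibroblasts, and its call was kept under all 19 other settings run. Set against the same pulmonary arrays, A-type gave 1.69, B-type 1.54 and C-type 1.76.

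Cdkn1a (p21, the Cip/Kip inhibitor induced by p53) had levels of 1.09 and 1.28 in A-type, 0.87 and 1.14 in B-type and 1.50 and 0.93 in C-type fibroblasts, against 2.36 and 2.48 in pulmonary single cells. Every fibroblast array was below both pulmonary arrays. The difference was -1.28 (SE 0.25, adjusted p = 0.00749), 2.43-fold lower in the fibroblasts. Its 2 other probes did not pass, at -0.67 (adjusted p = 0.261) and 0.39 (adjusted p = 0.332), and the call was lost when the gene's probes were averaged. Cdkn1b (p27, the Cip/Kip inhibitor long tied to resting cells) had levels of 2.73 and 3.07 in A-type, 2.95 and 3.02 in B-type and 2.46 and 1.84 in C-type fibroblasts, against 1.21 and 2.60 in pulmonary single cells. Pu2 lay among the fibroblast arrays and Pu1 below them. The difference was 0.77 (SE 0.40, adjusted p = 0.169), and it ran from 0.08 to 1.47 when single arrays were left out.

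Cdkn2b (p15, the INK4 inhibitor induced by TGF-beta) was the 1 of 39 tested members called between fibroblast types. That call was in B-type minus C-type, where 2.44% of all genes were called. Its probe, at chr4:88952276-88952335 (mm9, minus strand), read -2.19 and -2.55 in B-type fibroblasts and -5.37 and -5.35 in C-type fibroblasts, with the C-type arrays not well above background. It read -4.08 and -4.28 in A-type fibroblasts, also not well above background, and -1.69 and -1.86 in pulmonary single cells. The B-type arrays lay close under the mixture and those of the other types far under it. B-type minus C-type was 2.99 (SE 0.28, adjusted p = 0.00481), at least 2.37-fold higher in B-type. A-type minus B-type was -1.80 (SE 0.28, adjusted p = 0.211), in a comparison where 0 of 17251 genes were called. Against the pulmonary single cells, all fibroblasts gave -2.20 (SE 0.23, adjusted p = 0.000444), C-type at least 3.59-fold lower, A-type at least 4.58-fold lower and B-type -0.60 (adjusted p = 0.15).

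A second Cdkn2b probe was well above background on the pulmonary arrays alone and on neither B-type array. The difference between B-type and C-type rests on 1 probe, and its call was lost when the gene's probes were averaged, under normexp background correction, without B1 and without B2. Cdkn2a, the neighbour of Cdkn2b that encodes p16 and p19Arf, was well above background on C1 and Pu2 only, at -3.35 and -3.55, and could not be tested.

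**Figure D4:**
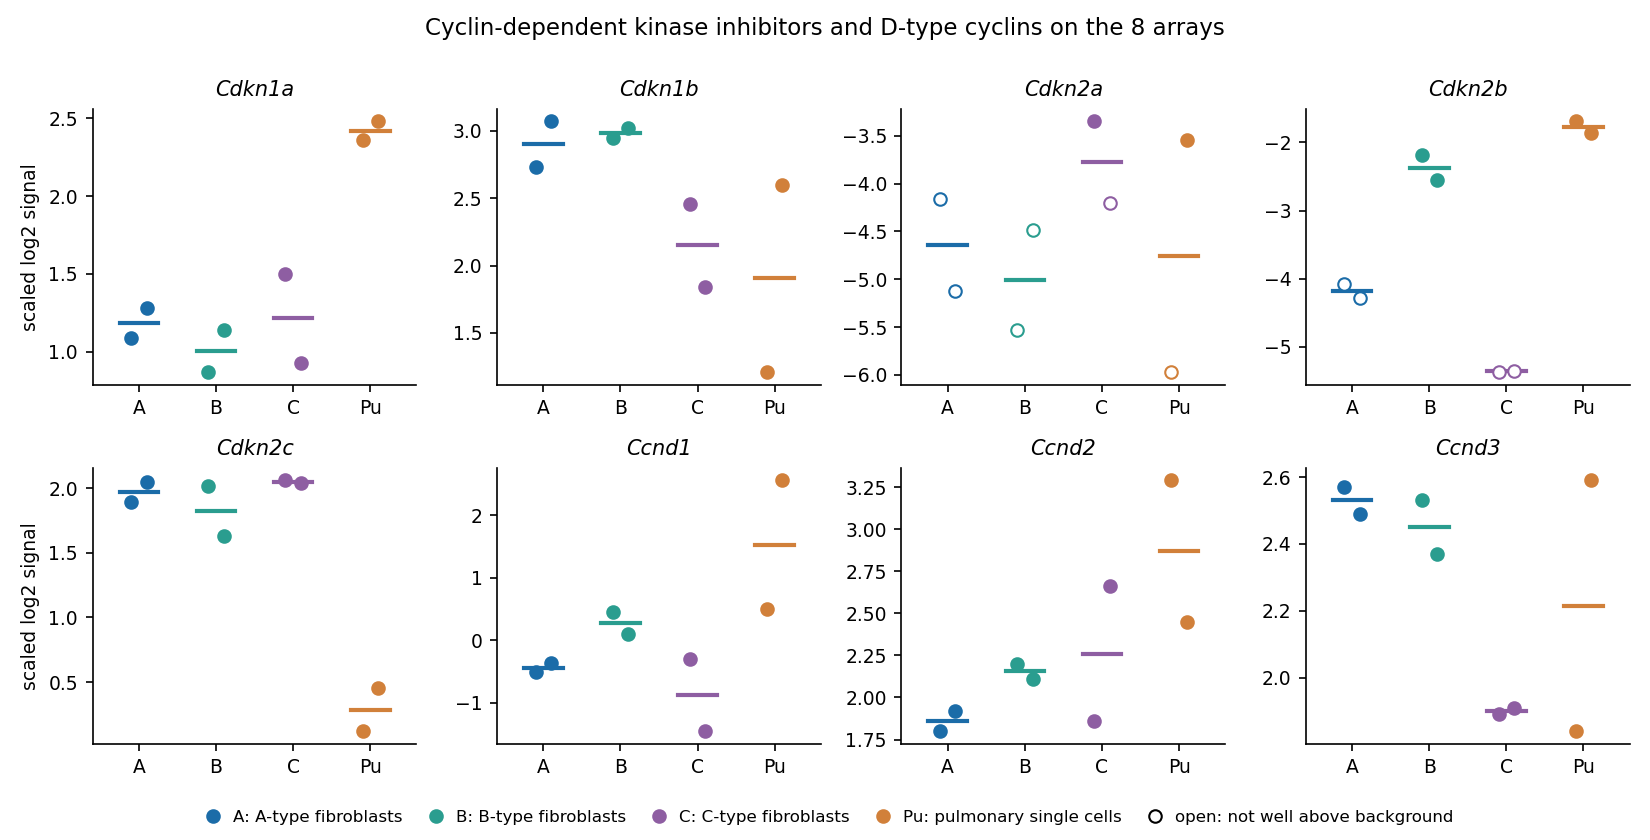
Scaled log2 signal (y axis) of the 5 cyclin-dependent kinase inhibitors and the 3 D-type cyclins on each array, with the 3 fibroblast types A, B and C left of the pulmonary single cells (Pu); bars are means of 2 arrays and open points were not well above background. Cdkn2c lies between 1.63 and 2.06 on the fibroblast arrays, against 0.12 and 0.45 on the pulmonary arrays, and Cdkn2b is at -2.19 and -2.55 in B-type, against -5.37 and -5.35 in C-type.

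D-type cyclins, which couple growth signals to the cycle, were well above background on all 8 arrays. Ccnd1 had levels of -0.51 and -0.36 in A-type, 0.46 and 0.11 in B-type and -0.29 and -1.45 in C-type fibroblasts, against 0.50 and 2.56 in pulmonary single cells. B1 came close to Pu1, and Pu2 stood alone at the top. The difference was -1.87 (SE 0.56, adjusted p = 0.0367), 3.65-fold lower in the fibroblasts. The call was lost under 11 of 19 other settings, among them leaving out Pu2, where the difference was -0.84.

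Ccnd2 had levels of 1.80 and 1.92 in A-type, 2.20 and 2.11 in B-type and 1.86 and 2.66 in C-type fibroblasts, against 3.29 and 2.45 in pulmonary single cells. The groups overlapped through C2, and the difference was -0.78 (SE 0.33, adjusted p = 0.104). Ccnd3 had levels of 2.57 and 2.49 in A-type, 2.53 and 2.37 in B-type and 1.89 and 1.91 in C-type fibroblasts, against 1.84 and 2.59 in pulmonary single cells. Its difference was 0.08 (SE 0.27, adjusted p = 0.838), and it was -0.21 under quantile normalization and -0.30 without Pu1.

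Set side by side on each array, the classes moved by different amounts. The mean level of the 18 tested mitotic genes, after each gene's own mean over the 8 arrays was subtracted, was -0.30 and -0.33 in A-type, -0.27 and -0.41 in B-type and -0.89 and -0.32 in C-type fibroblasts, against 1.00 and 1.52 in pulmonary single cells. The 14 S-phase genes gave 0.00 and 0.10 in A-type, 0.01 and -0.19 in B-type and -0.55 and -0.66 in C-type fibroblasts, against 0.38 and 0.91 in pulmonary single cells. The 4 inhibitors gave -0.10 and 0.02 in A-type, 0.40 and 0.30 in B-type and -0.35 and -0.65 in C-type fibroblasts, against -0.01 and 0.40 in pulmonary single cells. The mitotic and S-phase means were highest on both pulmonary arrays, while the inhibitor means overlapped between fibroblasts and mixture. The filter on dim probes bears on this contrast. Through the pulmonary arrays only, 7 of the 18 mitotic genes, 1 of the 14 S-phase genes and 0 of the 4 inhibitors had passed it. Means without those genes were not taken. By the median in place of the mean, the S-phase genes overlapped too. The median was 0.15 and 0.09 in A-type and 0.27 and -0.09 in B-type, against 0.07 and 0.79 on the pulmonary arrays. Taken singly, 8 of the 14 S-phase genes overlapped between fibroblasts and mixture, as did 9709 of all 17251 genes tested. No test was run on these class means, because the members were chosen with results known.

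Detection, counted by 1 probe a gene, was also less frequent for mitotic genes on the fibroblast arrays. Of the 21, 14 and 12 were well above background on the A-type arrays, 11 and 13 on the B-type arrays and 10 on each C-type array, against 18 and 19 on the pulmonary arrays. Counted by any probe of a gene, there were 11 on each C-type array, against 19 on each pulmonary array, and the A-type and B-type counts were as before. Of the 15 S-phase genes, 11 to 14 were well above background on the fibroblast arrays, against 14 on each pulmonary array. The share of all spots above background was also lower on the fibroblast arrays, at 54.6% to 66.4%, against 68.7% on each pulmonary array.

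**Figure D5:**
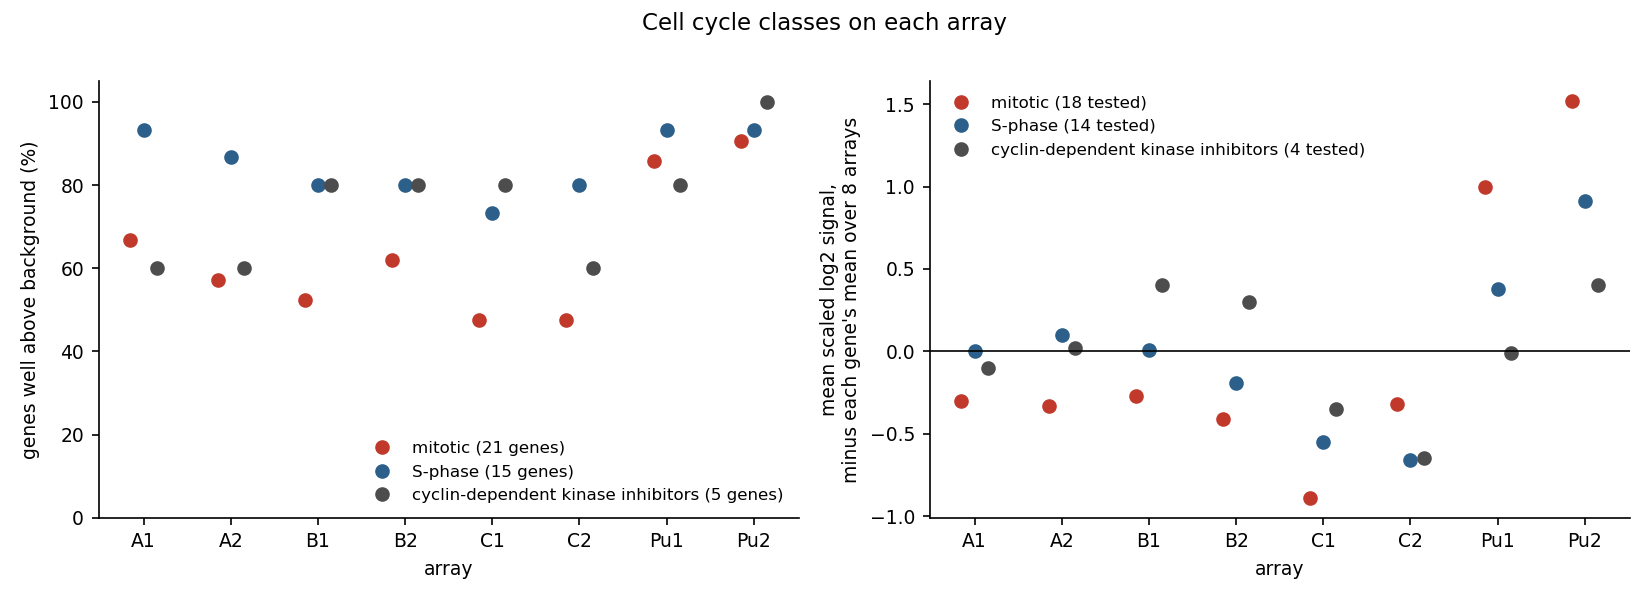
Left, percent of genes of a class whose brightest probe was well above background on each array (y axis); right, mean scaled log2 signal of the tested genes of a class after subtracting each gene's mean over the 8 arrays (y axis). Arrays A1 to C2 are fibroblasts and Pu1 and Pu2 are pulmonary single cells. The mitotic mean is 1.00 and 1.52 on the pulmonary arrays and between -0.89 and -0.27 on the fibroblast arrays. The means include 7 mitotic genes and 1 S-phase gene that passed the filter through the pulmonary arrays only.

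The 3 fibroblast types were then compared with pulmonary single cells 1 at a time, and these comparisons share both pulmonary arrays. The barcode number differed from that of the pulmonary arrays for A-type and B-type but not for C-type. Of the 32 tested mitotic and S-phase genes, 6 were called lower in A-type fibroblasts (11.9% of all genes were), 10 in B-type (13.0% of all) and 13 in C-type (13.8% of all). Of these 32, 8 had passed the filter through the pulmonary arrays only. Among the 24 others, 2 were called lower in A-type (8.33%, beside 7.05% of all genes measured in a fibroblast type), 5 in B-type (20.8%, beside 8.22%) and 9 in C-type (37.5%, beside 9.57%), so that the A-type share lay near that of all such genes. Mki67, Ccna2, Bub1, Kif11, Mcm2 and E2f2 were called lower in every type, and of these only Mki67 and E2f2 were among the 24. Ube2c, Plk1 and Ccnb2 were called in B-type and C-type, Bub1b in B-type, and Nusap1, Cdca8, Rrm2 and Tyms in C-type. Mcm4 was called higher in A-type, at 1.06, and in B-type, at 1.14, beside 15.2% and 16.5% of all genes called higher. The counts do not show that the types differ from each other, which the comparisons between types test.

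Between fibroblast types, few members differed beyond the spread of the arrays. In A-type minus B-type 0 of 39 members were called by limma, as were 0.0% of all genes, and 2 members (Mcm2 and Cdkn2b) had an unadjusted p under 0.05. In A-type minus C-type 0 of 39 were called, beside 0.412% of all genes, and 12 had an unadjusted p under 0.05. In B-type minus C-type 1 of 39 was called, Cdkn2b, beside 2.44% of all genes, and 10 had an unadjusted p under 0.05. Over all 17251 genes, 560 had an unadjusted p under 0.05 in A-type minus B-type, 2239 in A-type minus C-type and 2619 in B-type minus C-type. The 32 mitotic and S-phase genes had a median difference of 0.00 in A-type minus B-type, 0.25 in A-type minus C-type and 0.29 in B-type minus C-type, against -0.011, 0.063 and 0.058 over all genes.

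Genes that came closest to separating C-type from the other types were picked after their values were seen. Rrm2 gave 2.99 (adjusted p = 0.0823) for A-type minus C-type and 2.70 (adjusted p = 0.0637) for B-type minus C-type. Nusap1 gave 2.20 (adjusted p = 0.152), at least 1.34-fold, and 2.48 (adjusted p = 0.0688), at least 1.63-fold, in the same comparisons. Cdca8 gave 2.63 (adjusted p = 0.208) and 2.37 (adjusted p = 0.192). The C-type levels of Rrm2, Nusap1 and Cdca8 may be lower still, and the differences of Rrm2 and Cdca8 are given without a bound. By these probes all 3 were well above background on every A-type and B-type array and on neither C-type array. A second Cdca8 probe did not show this: it was well above background on C1 and C2, at -3.70 and -0.17, and read -4.15 and -3.90 in A-type and -5.16 and -3.36 in B-type fibroblasts, where A2 and B1 were not well above background. E2f1 gave 1.07 (adjusted p = 0.174) and 1.28 (adjusted p = 0.0708), with every array well above background. The C-type arrays also stood apart in other ways whose part was not tested: the summed level of the 7 fibroblast markers was 488 to 494 in C-type, against 845 to 985 in A-type and B-type. That of the 5 smooth muscle and pericyte markers was 2.04 to 3.90 in C-type, against 0.678 to 1.24. The summed level of the 4 alveolar type 2 markers overlapped between C-type and B-type. It was 9.08 to 16.0 in C-type, 6.21 to 9.15 in B-type and 5.65 to 6.12 in A-type.

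The 4 further lists held other genes of the pathway. Of 27 tested of 38 other mitotic genes, 18 were called lower in the fibroblasts (66.7%, beside 16.3% of all genes) and 1 higher, with a median difference of -1.44. Of the 27, 11 had passed the filter through the pulmonary arrays only, among them Kif23, Ckap2l and Nek2. Among the 16 others, 10 were called lower (62.5%, beside 11.1% of all genes measured in a fibroblast type), with a median of -1.32. Kif23, a motor of the central spindle, gave -4.50 (SE 0.46, adjusted p = 0.000416), at least 6.15-fold lower. Ckap2l was at least 2.96-fold and the centrosomal kinase Nek2 at least 3.96-fold lower. Kif23 and Nek2 were not well above background on any fibroblast array. Cep55, which acts in the final cut between daughter cells, was the 1 called higher, at 1.96 (SE 0.33, adjusted p = 0.00407), with 0.67 to 2.01 on the fibroblast arrays, against -1.18 to -0.25 on the pulmonary arrays.

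Of 32 tested of 39 other replication genes, 6 were called lower and 2 higher, with a median difference of -0.08. The share lower was 18.8%, beside 16.3% of all genes, and the share higher 6.25%, beside 20.8% of all genes. Gmnn, geminin, which stops origins from firing again, gave -3.00, with 4 of 6 fibroblast arrays well above background, and the licensing factor Cdt1 gave -2.33. Dbf4, which activates the Cdc7 kinase and was well above background on no fibroblast array, was at least 3.32-fold lower. Dut, which clears dUTP, gave 0.99 and Gins4, of the GINS complex of the fork, 0.88. Of 33 tested of 35 kinases, phosphatases and pocket proteins with their partners, 4 were called lower (12.1%) and 7 higher (21.2%), at a median of 0.29. These shares are near or under the 16.3% and 20.8% of all genes, so the list did not stand apart by its counts. The transcription factors Foxm1 and E2f8 were at least 5.92-fold and at least 2.50-fold lower, both having passed the filter through the pulmonary arrays only. Mybl2, which encodes B-Myb, gave -1.05. Cks1b, Cdk7 and Tfdp1 (the partner of E2F factors) were higher, by 2.01, 1.74 and 1.41.

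Of 36 tested of 37 other inhibitors and antiproliferative genes, 15 were called higher in the fibroblasts (41.7%, beside 20.8% of all genes) and 5 lower (13.9%, beside 16.3%), with a median difference of 0.63. Gas1, named for its rise in growth-arrested fibroblasts, gave 3.40 (SE 0.26, adjusted p = 0.000125), 10.6-fold higher, with levels of 4.62 to 5.31 on the fibroblast arrays, against 1.21 to 1.95 on the pulmonary arrays. Pik3ip1, an inhibitor of phosphoinositide 3-kinase, gave 2.58 and Ndrg1 2.56. Trp73, of the p53 family, gave -1.93, the polo-like kinase Plk2 -1.46 and Cdkn3 -1.29. Cdkn3 encodes a phosphatase whose own transcript is known to peak in mitosis. Trp73 is also known from ciliated airway cells, whose marker Foxj1 was not well above background on any fibroblast array. The part of such cells in the Trp73 difference was not tested. Between fibroblast types limma called 0 genes of the 4 lists. Of all genes, 0.0% were called in A-type minus B-type, 0.412% in A-type minus C-type and 2.44% in B-type minus C-type. In B-type minus C-type, 3 of 27 other mitotic and 4 of 32 other replication genes had an unadjusted p under 0.05. So did 9 of 33 kinases, phosphatases and pocket proteins and 9 of 36 other inhibitors and antiproliferative genes. Over all genes, 2619 of 17251 did.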

How the data were processed

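RNA from 8 samples was hybridised to one-colour Agilent mouse arrays. Per the file headers, the deposited scanner files hold spot intensity from Agilent Feature Extraction 10.10.1.1, background-subtracted as the processed signal, with flags (0 or 1) for spots well above background, saturated or outlying; 0 spots were saturated. The authors' deposited value table holds log2 values, each column equal to the log2 processed signal minus a constant within 0.02 for 100% of 55221 probes, with a column median of 4.84. It was an alternative. Probe coordinates are on mm9, per the file headers.

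Spots of a probe were averaged, leaving 55653 of 55681 probes. Probes were named through the RefSeq table, 28011 by accession, 3187 by symbol and the rest by another accession, a synonym or the file's symbol, while 22810 have no name. Log2 signals were scaled to each array's 75th percentile. Probes well above background on both arrays of at least 1 group were kept, and the brightest stood for its gene. Under R 4.3.3, lmFit, contrasts.fit and eBayes of limma 3.58.1 fitted 4 group means over all 8 arrays (4 residual and 3.06 prior degrees of freedom), with Benjamini-Hochberg adjustment within each comparison. On simulated data for fibroblasts minus pulmonary single cells over 17251 genes, the fit recovered 2, 33, 47 and 49 of 50 genes changed by 1, 2, 3 and 4 log2 units, with 4 false calls. The simulation changed only 50 genes of each size, whereas 6399 genes were called in the data. An adjusted p depends on how many genes differ, so these recovery counts do not carry over to the data. The number of arrays limits the precision.

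The members and the pathway and marker lists were chosen with earlier results of these data known. Every array's value is given for members called between fibroblast types, for all inhibitors and D-type cyclins, and for the 5 mitotic and 5 S-phase genes with the largest called differences between fibroblasts and pulmonary single cells. From each pathway list, up to 3 called genes in each direction are named. The labels call the 2 samples of a group independently prepared; whether they come from separate mice is not stated, so p-values measure the spread between these samples. Replicate numbers did not pair the samples. Alternatives covered scaling, background correction, the filter, the choice of probe, the variance model, the samples in the fit and each array left out. Figures were drawn with Python 3.11.15 and matplotlib 3.10.9.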

Additional observations from a re-analysis of the deposited data

Results flagged for a closer look

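By its 1 kept probe, Cdk1 lay above both pulmonary arrays in C-type fibroblasts and below both in A-type. A2 was only just below, since A2 and Pu2 both read -2.29 to this rounding. Neither difference was called by limma: A-type minus pulmonary single cells was -0.34 (adjusted p = 0.481) and C-type minus pulmonary single cells 0.65 (adjusted p = 0.188). The difference between the types itself, A-type minus C-type, was -0.99 (SE 0.33) and was not called either (adjusted p = 0.276).

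E2f1, which activates replication genes, lay above both pulmonary arrays in A-type and B-type fibroblasts and below them in C-type. The levels were 1.42 and 1.65 in A-type, 1.83 and 1.65 in B-type and 0.60 and 0.32 in C-type, against 1.04 and 0.83 in pulmonary single cells. A-type minus pulmonary single cells was 0.60 (adjusted p = 0.155), B-type minus pulmonary single cells 0.81 (adjusted p = 0.0681) and C-type minus pulmonary single cells -0.47 (adjusted p = 0.25), none of them called by limma. A-type minus C-type was 1.07 and B-type minus C-type 1.28, and neither was called (limma, adjusted p = 0.174 and 0.0708).

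Cdkn2b differed between fibroblast types by a test of the difference itself, at 2.99 for B-type minus C-type (limma, adjusted p = 0.00481). It was higher on both B-type arrays than on any A-type or C-type array. The barcode number that differs on the C-type arrays and the type cannot be told apart in this comparison.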

How the results depend on the processing

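The 60 called differences of single members kept their direction under every alternative run. Those of Mki67, Ccna2, Kif11, Rrm2, E2f2 and Cdkn2c between fibroblasts and pulmonary single cells also kept their call. Uncalled Ccnd3 (0.08) turned to -0.21 with quantile normalization, -0.23 when the 75th percentile was taken over detected probes alone, and ran from -0.30 (without Pu1) to 0.45 (without Pu2) with single arrays left out. The 14 mitotic and S-phase genes lower in fibroblasts became 9 with median scaling, 8 in the authors' table, 9 with normexp, 7 with array weights and 5 of 19 above background on all 8 arrays. All genes called lower fell as well. Of 17251 they went from 2813 to 2006, 2003, 2325 and 1329 in that order, and to 1399 of 12848 above background on all arrays. The count of 6 in A-type became 11 with probe means, 10 with every kept probe fitted on its own (an alternative chosen after seeing the data) and 2 above background on all arrays. All genes called lower in A-type went from 2052 to 2275 with probe means and to 903 above background on all arrays. The 10 in B-type became 6 with normexp, 6 with array weights and 3 above background on all arrays. All genes called lower in B-type went from 2238 to 1916, 1440 and 1070 in that order. The 13 in C-type became 7 with normexp, 6 with array weights, 8 in a fit of the compared arrays alone and 6 above background on all arrays. All genes called lower in C-type went from 2384 to 1751, 1048, 1338 and 1150 in that order. With single arrays left out, the counts ran from 10 to 15 in all fibroblasts, 3 to 10 in A-type (3 without A1 or A2, 10 without C1 or C2), 6 to 12 in B-type (6 without B1 or B2) and 11 to 17 in C-type. Members called in A-type minus B-type stayed at 0 with each array left out and were 2 with array weights. In A-type minus C-type there were 1 with array weights and 0 to 1 with an array left out (1 without C1). In B-type minus C-type there were 0 with probe means, 2 with trended robust variance, 3 with array weights and 0 to 3 with an array left out (0 without B1 or B2, 3 without C1). The cause of these shifts was not tested, apart from the fewer genes of the stricter filter.

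Arrays with the same replicate number did not deviate together (correlations of -0.084 to 0.059), so the numbers only name samples. With the replicate number as a block, 2 members were called in B-type minus C-type and 52 of the 60 called differences kept their call. Blocks for the slide and for the barcode number after it could not be fitted, because each group lay on 1 slide and had 1 such number. Of all genes called between fibroblasts and pulmonary single cells, 56% were higher, against 71.8% with median scaling, 71.9% in the authors' table, 71% above background on all arrays and 39.5% with the percentile over detected probes alone; the median difference of all genes moved to 0.459, 0.462, 0.261 and -0.208 there. Signals near background limit the low genes, whose folds are bounds.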
